A study of Morone chrysops x Morone saxatilis with 6 samples.

Results

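The 100 coding sequences with the highest counts in the liver of hybrid striped bass took 34.6% to 41.4% of all RNA counts in a library, and which of them stood highest differed far more between replicate numbers than between large and small fish. They were chosen by their level alone: each of the 6 libraries was divided by its total and multiplied by 1000000 to give CPM, the count a sequence would have in a library of that size, and the 100 of 38047 coding sequences with the highest mean CPM over all 6 libraries were kept. The levels and the rank order below are therefore a description of the choice and carry no test. The growth label and the replicate number were not used in the choice, and both were tested in fits over the whole table. Some of the 100 entered through a high level in part of the numbers, so their calls by number are not free of the choice.

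The fish were hybrids of F8 white bass with F4 striped bass, both domesticated, from 44 half-sib families that were stocked together in 4 ponds. They were harvested after 115 days, and equal amounts of liver RNA were pooled, from the largest fish for one group and the smallest for the other. The large and the small group have 3 pooled libraries each, and both groups share the cross, the ponds and the time of growth. The description labels number the libraries 1 to 3 in both groups, and this is the replicate number used here. The titles instead number the pools consecutively over both groups, with no number repeated. The titles call the pools biological replicates but do not say how many fish a pool holds, which families or sexes it drew on, or what an equal number in both groups stands for, and nothing shows that the pools of a group came from separate ponds, so the tests below speak only of variation among these pools.

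The liver makes most proteins of the blood plasma, among them carriers of lipid and iron, clotting and complement factors and protease inhibitors, and in female fish also vitellogenin, the precursor of egg yolk. A small set of such secreted products and of metabolic enzymes usually supplies much of the messenger RNA of this organ. Which of these products the 100 coding sequences encode cannot be said here: rows of the table carry a running number (HSB_liver_CDS_ followed by 1 to 38047), 0 identifiers are paired with a gene name, and no sequence or annotation was used. For the same reason the labelled tissue could not be checked against liver markers, and no marker of blood, pancreas or other cells could be read. In pooled tissue, fewer cells of a type and less RNA per cell cannot be told apart.

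Totals ran from 2434421 to 19625891 counts per library, all 100 passed the filter on low counts, and the lowest count of any of them in any library was 95. A CPM is not divided by the length of the coding sequence, so the order of 2 coding sequences by CPM is an order of counts and not of RNA molecules. A CPM is also a share of a fixed sum, so that a rise of one abundant coding sequence lowers the CPM of the rest.

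Together the 100 coding sequences, 0.263% of those in the table, held 34.6%, 41.4% and 38.7% of the counts of the large pools and 36.3%, 38.1% and 36.5% of those of the small pools, here and below in the order of replicate numbers 1, 2 and 3. The exact 95% binomial interval was 34.6% to 34.7% in large library 1 and 38.0% to 38.1% in small library 2, the shallowest, and covers counting error only. Large pools had a mean share of 38.2% ± 3.39 (SD, n = 3). Small pools had one of 37.0% ± 0.97 (SD, n = 3). The groups overlapped, and the highest and the lowest of the 6 shares were both in large fish. The next 900 coding sequences by mean CPM took a nearly equal amount, 33.1% to 35.6% of a library.

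Output was concentrated in a few coding sequences at the top and then fell off slowly. The mark of 25% of all counts was reached with 26 to 38 coding sequences and 50% with 171 to 227, counted from the top of each library. The 50% mark was reached with 227, 171 and 176 in large libraries 1, 2 and 3 and with 215, 211 and 218 in the small ones, so that the 2 lowest values were in large fish and so was the highest. Of the 100, 4 held over 1% of the counts on average and 19 over 0.5%. The first 10 held 11.9% to 15.7% of a library and the other 90 held 22.3% to 26.2%.

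**Figure D1:**
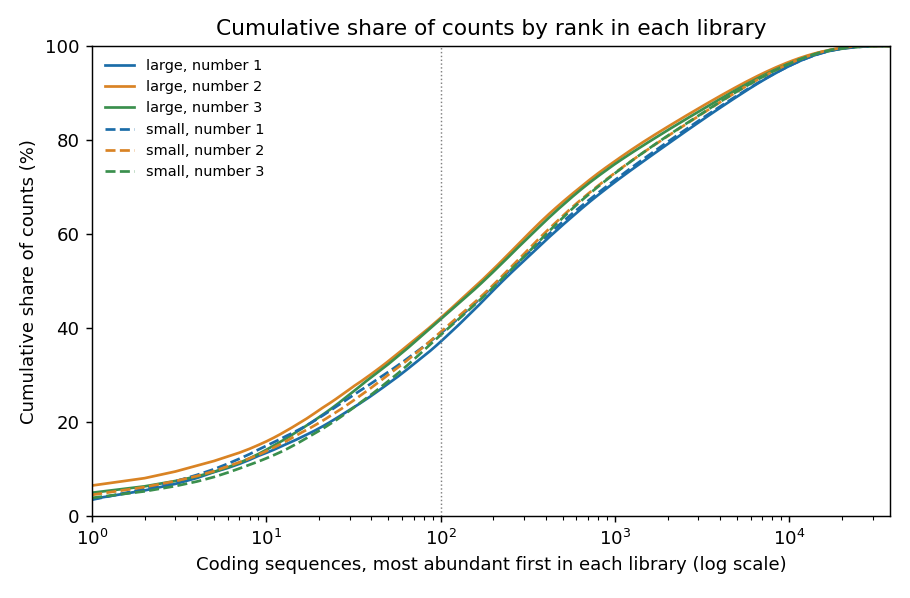
Cumulative share of counts (%) against the number of coding sequences, ordered within each library from the most abundant (log scale), for 3 large (solid) and 3 small (dashed) pooled libraries. At 100 coding sequences (dotted line) the 6 curves lie between 37.1% and 42.2%, with no separation of large from small.

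HSB_liver_CDS_35983 was first in every library and stood apart from all others. Its level was 36730, 65388 and 50048 CPM in the large pools and 35206, 45543 and 39192 CPM in the small pools. It exceeded the second coding sequence of the same library by a factor of 1.54 in small library 1 up to 4.19 in large library 2. The place below it was taken by HSB_liver_CDS_31197 in both libraries numbered 1, and by 4 different coding sequences in the other 4 libraries.

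Next in mean level were HSB_liver_CDS_31197 with 9438 to 22858 CPM over the 6 libraries, HSB_liver_CDS_19942 with 9506 to 16482 CPM and HSB_liver_CDS_4086 with 9865 to 15606 CPM. These 3 and HSB_liver_CDS_35983 were the 4 coding sequences that belonged to the first 10 of all 6 libraries. Altogether 22 coding sequences belonged to the first 10 of at least 1 library.

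Ranks 5 to 8 by mean CPM were held by HSB_liver_CDS_35975 (6331 to 10942 CPM), HSB_liver_CDS_20788 (4899 to 13867 CPM), HSB_liver_CDS_37897 (6195 to 12081 CPM) and HSB_liver_CDS_4087 (6840 to 9476 CPM). HSB_liver_CDS_20788 ranked 4 and 5 in the small and the large library numbered 1, and 20 and 23 in those numbered 3. The means of these 4 lie between 8103 and 8626 CPM, and the ranges of all 4 overlap, so that their order is not set apart by the spread between libraries.

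The remaining pair of the first 10 owed its place to numbers 2 and 3. HSB_liver_CDS_36538 was at 2572, 8227 and 9534 CPM in the large pools and at 2151, 10171 and 11137 CPM in the small ones. HSB_liver_CDS_35974 was at 1303, 6046 and 9729 CPM in the large and at 958, 6911 and 13783 CPM in the small libraries. Both libraries numbered 1 were lowest for both coding sequences. HSB_liver_CDS_35974 ranked 116 and 152 there and 5 and 2 in the large and the small library numbered 3.

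**Figure D2:**
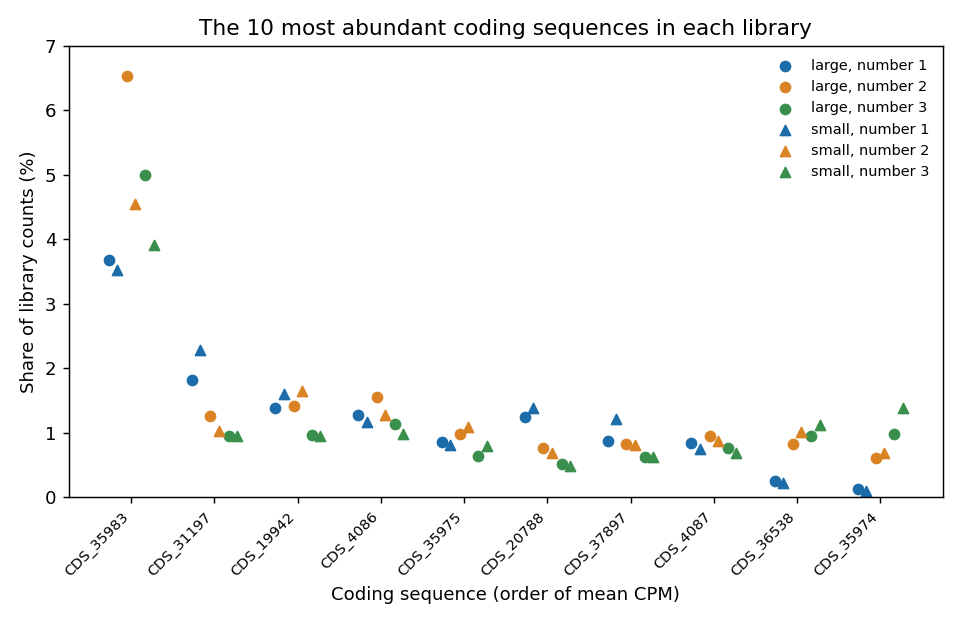
Share of library counts (%) of the 10 coding sequences with the highest mean CPM, 1 point per library (circles large, triangles small, colour by replicate number). HSB_liver_CDS_35983 lies between 3.52% and 6.54%, all others under 2.29%, and the last 2 are lowest in both libraries numbered 1.

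At the lower limit the choice was between near-equal values. The last 3 taken were HSB_liver_CDS_28299, HSB_liver_CDS_33962 and HSB_liver_CDS_21453 with means of 1464, 1450 and 1409 CPM, and the first 3 left out were HSB_liver_CDS_35968, HSB_liver_CDS_36660 and HSB_liver_CDS_5140 with 1395, 1391 and 1364 CPM. HSB_liver_CDS_28299 was at 241 and 150 CPM in the large and the small library numbered 1 and between 1686 and 2480 CPM in the other 4. HSB_liver_CDS_33962 was at 913 to 1941 CPM, and HSB_liver_CDS_21453 at 789 to 2183 CPM.

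Of the 100, 45 were among the 100 most abundant of every single library. When each library was ranked on its own, 45 coding sequences were in all 6 lists and 173 in at least 1. Of the 100 chosen by the mean, 77, 91 and 74 were in the own lists of the large pools, and 75, 85 and 77 in those of the small pools. None was in fewer than 2 lists, and 6 were in exactly 2. The own lists of the large and the small library of a number shared 85, 87 and 88 coding sequences for numbers 1, 2 and 3, against 51 to 84 for libraries of the same growth group and different number. Without both libraries numbered 1, a setting chosen after seeing the data, 70 coding sequences were in all lists.

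The rank order within the 100 followed the number in the same way. Across the 100 coding sequences, which share libraries and depth and are not replicates, Spearman's rho of large with small at equal number was 0.95, 0.94 and 0.93 for numbers 1, 2 and 3. Between libraries of the same growth group and different number it was 0.02 to 0.78 (6 pairs, mean 0.41). The lowest of these values were between numbers 1 and 3, 0.04 in large and 0.02 in small fish. All hold within a set chosen by its mean over the same libraries and do not describe coding sequences outside it.

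Number accounted for nearly all of the spread of these coding sequences between libraries. On log2(CPM + 1), 95.8% of the squared deviations within the 100 fell to number and 1.84% to growth group, where 40% and 20% of the degrees of freedom belong to them. Without 4 coding sequences that entered the 100 through number 3 alone, left out after seeing the data, these shares were 93.9% and 2.90%. Over the 900 ranked next they were 89.9% and 5.12%, and over all 18135 coding sequences tested 72.3% and 10.4%. Large and small libraries of the same number differed by a median of 0.22 on this log2 scale, and libraries of the same group with different numbers by 0.59. Counting error differs between these sets: the Poisson error of the lowest of the 6 counts had a median of 1.42% for the 100, 4.34% for the 900 and 25.8% for all tested.

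The edgeR quasi-likelihood test for replicate number, with growth group in the model and Benjamini-Hochberg adjustment over all coding sequences, called 49 of the 100 at an adjusted p under 0.05. It called 14.5% of all coding sequences tested and 40.1% of the 900 ranked next, so that the 49 stand nearer to other well-expressed coding sequences than to the whole table. All 4 that entered the 100 through number 3 alone are among the 49, and 45 of the other 96 were called. Some of the 96 also passed the choice through their level in part of the numbers, so that their calls are not free of the choice. HSB_liver_CDS_6683, named after its values were seen, was called and was at 3504 and 3990 CPM in the large and the small library numbered 1. Elsewhere it was at 816 to 1122 CPM, below every mean among the 100. With 5 libraries, which leaves 1 degree of freedom for the spread, the count was 0 without large library 3, 8 without small library 3, 13 without small library 1, 22 without large library 1, 42 without small library 2 and 51 without large library 2. The number of calls thus fell most without a library numbered 1 or 3. Shares of all tested called in these settings are not given here, so whether the fall is particular to the 100 cannot be said. Whether equal numbers share a preparation, a sequencing run, a pond or related fish is not stated, and these cannot be told apart.

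The 4 with the smallest p for number changed between numbers in the same way in large and small fish. The test takes its spread from how far large and small disagree within the numbers, so this likeness largely follows from the pick. HSB_liver_CDS_37858 was at 279, 3247 and 4841 CPM in the large pools and at 240, 2686 and 3883 CPM in the small ones. HSB_liver_CDS_4090 was at 275, 3186 and 5212 CPM in the large and at 171, 3480 and 4757 CPM in the small libraries. HSB_liver_CDS_4091, whose running number follows directly, was at 142, 2067 and 3288 CPM in the large and at 88, 2214 and 2830 CPM in the small libraries. For all 3 both libraries numbered 1 lay more than 10 times below the mean of number 3. These 3 entered the 100 through their levels outside number 1, and the 4th, HSB_liver_CDS_3755, through its level in number 3 alone. The p-values of all 4 are therefore not given as results. The levels of HSB_liver_CDS_3755 follow below.

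The makeup of the 100 turned over between number 1 and number 3 while their sum changed little. Both libraries numbered 1 lay above the other 4 for 34 of the 100 (30.6% of all tested) and below them for 37 (22.3% of all tested). Both libraries numbered 3 lay below the other 4 for 48 (16.2% of all tested) and above them for 18 (14.8% of all tested). For number 2 the counts were 11 above (4.18% of all tested) and 4 below (6.61% of all tested). Of the 900 ranked next, number 1 lay above for 34.2% and below for 32.0%, and number 3 above for 17.0% and below for 32.8%. Apart from the 48 below in number 3, the turnover between numbers 1 and 3 was thus much the same in the 900. With TMM scaling in place of library totals the counts for number 1 were 27 above (26.7% of all tested) and 38 below (25.3%), and for number 3 they were 19 above (16.3%) and 40 below (15.1%). The 34 that were highest in number 1 summed to 14.9% and 17.1% of counts in the large and the small library numbered 1 and to 6.95% to 10.4% in the others. The 37 that were lowest in number 1 summed to 9.13% and 7.98% there and to 18.01% to 20.02% in the others. These sums follow from how the 34 and the 37 were picked and are given for their size only.

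**Figure D3:**
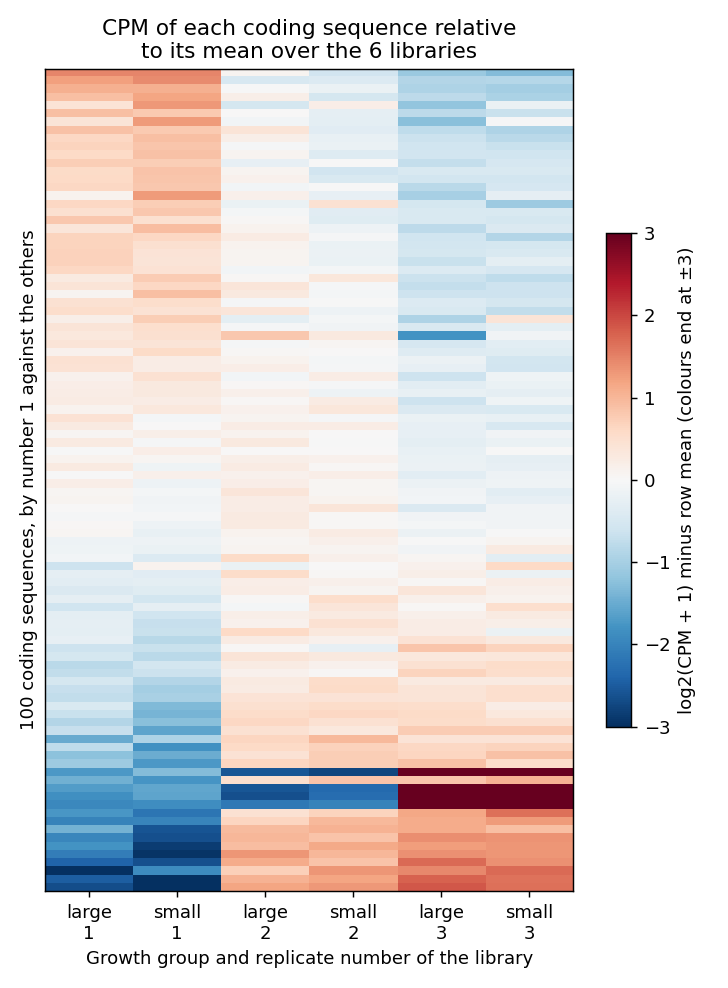
log2(CPM + 1) of the 100 coding sequences (rows) in the 6 libraries (columns, by replicate number), less the mean of the row, with rows ordered by number 1 against the others. The 2 columns of a number look alike, the columns of number 1 and number 3 are opposite in many rows, and 4 dark rows are high in both libraries numbered 3 only.

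A group of 4 coding sequences reached the 100 through number 3 alone. In both libraries numbered 3 they were over 10 times higher than in any other library, which held for 0.336% of all coding sequences tested and for 4.33% of the 900 ranked next. Together they made up 3.91% of counts in large library 3 and 2.05% in small library 3, against 0.030% to 0.054% in the other 4 libraries.

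HSB_liver_CDS_3742 was the second most abundant coding sequence of large library 3, at 13556 CPM, and was at 5985 CPM in small library 3, but at 79.2 to 166 CPM elsewhere. HSB_liver_CDS_3755 was at 8959 and 5988 CPM in number 3 and at 105 to 127 CPM elsewhere. HSB_liver_CDS_32684 was at 9341 and 5265 CPM in number 3 and at 69.4 to 142 CPM elsewhere. HSB_liver_CDS_3748 was at 7269 and 3263 CPM in number 3 and at 39.0 to 109 CPM elsewhere, so that its rank ran from 15 in large library 3 to 2671 in small library 2. All 4 were higher in the large than in the small library of number 3, by factors of up to 2.27, and 3 of the 4 have running numbers between 3742 and 3755.

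Differences of this size made up the upper end of the spread. The mean of the highest number was over 10 times that of the lowest for 12 of the 100, against 8.0% of the 900 ranked next and 6.05% of all tested. Number 3 was highest in all 12, and number 1 was lowest in 8 and number 2 in 4 of them. It was over 2 times that of the lowest for 59 of the 100 (55.2% of all tested). Of these 59, 28 were highest in number 1 and lowest in number 3, and 20 were highest in number 3 and lowest in number 1.

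At the other end some abundant coding sequences were level across all pools. The coefficient of variation (CV, SD over mean) of CPM over the 6 libraries had a median of 38.0% and ran from 8.38% to 166%. For the 900 ranked next the median was 35.7% and for all tested 45.3%. It was under 15% for 11 of the 100, against 10.2% of the 900 and 4.78% of all tested. It was over 60% for 19 of the 100, against 22.3% and 31.2%. All 100 varied by more than the counting error of their lowest count, which was at most 10.3%. HSB_liver_CDS_31485 varied least, with 2098, 2410 and 2316 CPM in the large and 2099, 2585 and 2432 CPM in the small libraries. HSB_liver_CDS_23543 (1401 to 1875 CPM) and HSB_liver_CDS_37882 (1319 to 1768 CPM) followed with CVs of 9.23% and 10.4%. Leaving out both libraries numbered 1, a setting chosen after seeing the data, lowered the median CV of the 100 to 19.1%.

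**Figure D4:**
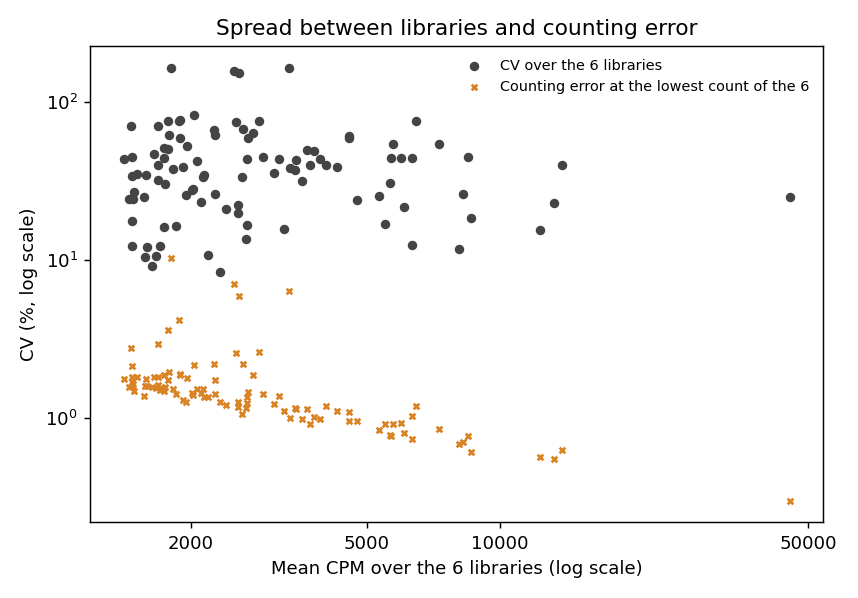
CV (%) of CPM over the 6 libraries against mean CPM for the 100 coding sequences (circles), with the Poisson error of the lowest of the 6 counts (crosses), both axes on log scales. Every circle lies above its cross, and the 4 circles above 150% are those high in number 3 only.

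Between large and small fish edgeR called none of the 100 coding sequences, and DESeq2 with the replicate number as a block called 1. The edgeR quasi-likelihood test called 0 of the 100 at an adjusted p of 0.05 (0% of all coding sequences tested). Its unadjusted p was under 0.05 for 0 of the 100 and for 194 of the 18135 tested, and the smallest among the 100 was 0.13. With the replicate number as a block edgeR again called 0 (0% of all tested), with 7 of the 100 under an unadjusted 0.05. DESeq2 called 0 of the 96 it gave an adjusted p. DESeq2 with the block called 1 (0.285% of all it tested). Limma voom called 0 without and 0 with the block, with 0 and 23 under an unadjusted 0.05. Shares of all tested under an unadjusted 0.05 with the block were not taken, so 7 and 23 cannot be set against the whole table.

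Without the block no difference was past 2 standard errors. With it 26 of the 100 were, a count not taken over all tested, and edgeR called 0. With the block 2 standard errors did not mark an unadjusted p under 0.05. HSB_liver_CDS_35983 was at 0.37 with an SE of 0.17, and its unadjusted edgeR p was 0.084. Log2 fold changes from edgeR, large minus small, had a median absolute value of 0.17, against 0.20 for the 900 ranked next and 0.25 for all tested, and a median standard error of 0.47. With the block the median absolute value was 0.19 and the median standard error 0.15. Without the block they ran from -0.83 to 1.25, and 2 of the 100 were past 1 in size, HSB_liver_CDS_3742 and HSB_liver_CDS_3748, whose standard errors were 2.19 each. The fold change of HSB_liver_CDS_3742 was -4.28 without large library 3 and 5.25 without small library 3. Of the 100 fold changes without the block, 67 were positive with TMM scaling, 67 with RLE scaling and 67 in DESeq2. With library totals only, 55 were positive, so that among these fits the balance moved only where such scaling was left out. With TMM scaling 523 of the 900 ranked next were positive and 377 negative. Over all tested 8935 were positive and 9200 negative. All 3 large libraries lay above all 3 small ones for 0 of the 100 (1.66% of all tested) and below them for 0 (2.89% of all tested).

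The call of DESeq2 with the block was HSB_liver_CDS_16951. It was at 5271, 2755 and 1750 CPM in the large pools and at 9668, 4520 and 3422 CPM in the small pools. The groups overlapped, while within each number the large library stood lower, at 0.55, 0.61 and 0.51 times the small one. EdgeR without the block put the log2 difference at -0.83 with an SE of 0.53 (adjusted p = 1.0) and with the block at -0.79 with an SE of 0.14 (adjusted p = 0.93), and the DESeq2 adjusted p was 0.028 with the block. That call was lost without both libraries of number 1, 2 or 3, with DESeq2 adjusted p-values of 1.0, 0.079 and 0.94 at log2 fold changes of -0.71, -0.89 and -0.74. Leaving out both libraries of a number leaves 1 degree of freedom for the spread, so the lost call does not show that the difference was absent. Without small library 1 the edgeR log2 fold change was -0.26.

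The other 3 coding sequences with the smallest p for growth in their direction were not called by any test. HSB_liver_CDS_20984 was at 3632, 2639 and 1705 CPM in the large and at 5368, 3085 and 4245 CPM in the small libraries, and edgeR put large minus small at -0.63 on the log2 scale with an SE of 0.37 (adjusted p = 1.0). HSB_liver_CDS_37880 was at 4927, 7686 and 5436 CPM in the large and at 3932, 5802 and 4153 CPM in the small libraries, and edgeR put the difference at 0.46 with an SE of 0.35 (adjusted p = 1.0). Within the numbers its large library stood at 1.25, 1.32 and 1.31 times the small one. HSB_liver_CDS_35983, the most abundant of all, differed by 0.43 with an SE of 0.34 in edgeR (adjusted p = 1.0), with large over small at 1.04, 1.44 and 1.28 for numbers 1, 2 and 3.

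Within all 3 numbers the large library stood above the small one for 24 of the 100 (11.3% of all tested) and below it for 15 (16.6% of all tested). With TMM scaling these counts were 33 (15.2% of all tested) and 9 (13.96%). Across the 100 the log2 differences of large and small, which share no library between numbers, had a Pearson correlation of 0.04 for numbers 1 and 2, of 0.31 for numbers 1 and 3 and of 0.10 for numbers 2 and 3. A p that misses the threshold does not show that large and small fish had equal levels. In the test without the block, where the median standard error of the 100 was 0.47, fold changes past 1 on the log2 scale could also go uncalled. Of the 18135 coding sequences tested, 1175 were past 1 in size and 0 were called.

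**Figure D5:**
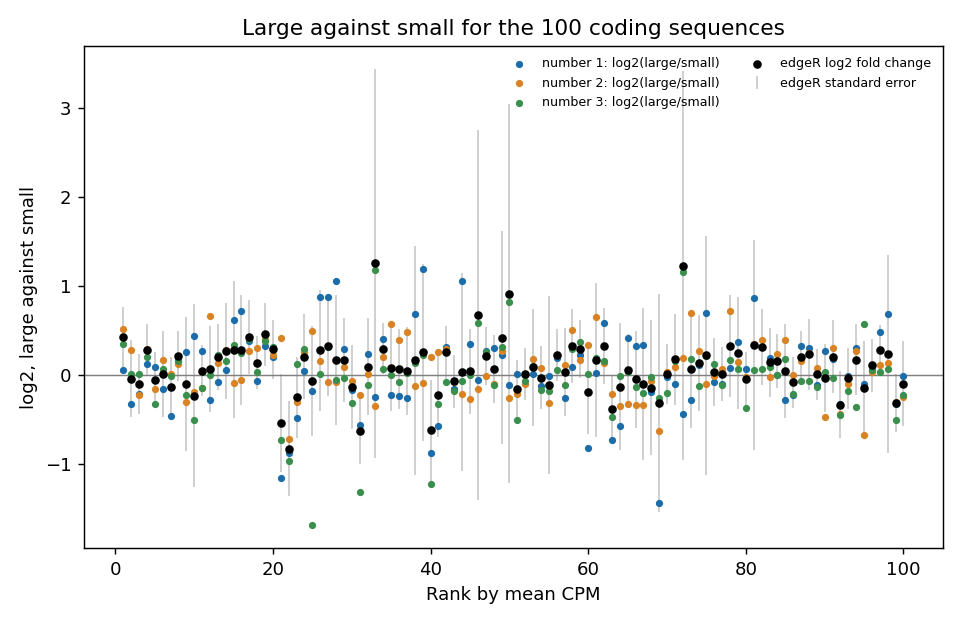
Large against small fish on the log2 scale for the 100 coding sequences by rank of mean CPM: edgeR fold change (black, bars are standard errors) and the ratio within each replicate number (coloured). Most black points lie within 1 standard error of 0, and the widest bars belong to the 4 coding sequences high in number 3 only.

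Many of the 100 had running numbers close to each other. With gaps of at most 10 numbers, 51 of the 100 fell into 16 stretches of 2 to 7. Of the next 100 by mean CPM 53 did so, and of the 100 after those 36, so that closeness was not particular to the 100 most abundant. The labels do not say what the running number follows. The stretches named next were chosen after their values were seen.

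The stretch from 35965 to 35983 holds 5 of the 100, among them ranks 1, 5 and 10 by mean CPM, and took 4.53% to 8.64% of a library. The longest, from 26500 to 26514, holds 7 and took 1.87% to 3.59%. Within it HSB_liver_CDS_26501 was at 728 and 319 CPM in the large and the small library numbered 1 and at 3607 to 4223 CPM in the other 4, whereas HSB_liver_CDS_26511 was at 5924 and 5719 CPM in number 1 and at 2474 and 2024 CPM in number 3.

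In 5 of the 16 stretches the CV of the sum was lower than that of every member, and parts of 2 of these 5 show how their members moved in opposite ways. HSB_liver_CDS_24038 was at 4171 and 4115 CPM in the large and the small library numbered 1, at 1585 and 1005 CPM in number 2 and at 690 and 605 CPM in number 3. HSB_liver_CDS_24043 was at 108 and 290 CPM in number 1, at 1752 and 2703 CPM in number 2 and at 2927 and 3491 CPM in number 3. The 4 members between 24036 and 24045 summed to 0.946% to 1.43% of a library, with a CV of 14.8% where the steadiest of them had 22.2%. HSB_liver_CDS_28304 was at 6324 and 6613 CPM in number 1 and at 4624 and 4526 CPM in number 3, and its sum with HSB_liver_CDS_28299 had a CV of 7.13%, against 16.8% and 70.2% for the 2 alone.

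The sum had a lower CV than the median of its members in 15 of the 16 stretches. A sum of values that do not move together has a lower CV by arithmetic, so these counts describe the values only. Whether neighbours are copies of a gene, the parental copies of a hybrid or unrelated genes cannot be read from the table, and the counting method named in the submitters' notes shares reads between similar sequences, so the split between near-identical neighbours is uncertain.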

How the data were processed

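Liver RNA from pools of fish was sequenced after library preparation with an Illumina TruSeq RNA kit, per the labels' protocols. The authors deposited 1 table of estimated counts for 38047 coding sequences and 6 libraries, all whole numbers. The submitters' processing notes name eXpress 1.5.1, Bowtie2 2.3.1, Trim Galore 0.4.3 and DESeq2, without their roles. Their settings and the reference are not recorded in the labels. The unit was read as estimated rather than raw counts because eXpress estimates counts, and no rounding was needed.

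CPM from library totals chose the 100 and serve for levels, ranks, shares and CVs. Tests were fitted on the 18135 coding sequences kept by filterByExpr (19912 left out), with TMM scaling, using edgeR 4.0.16 (R 4.3.3) and its robust quasi-likelihood test and Benjamini-Hochberg adjustment over all of them, at a threshold of 0.05. Standard errors were derived from the F statistic. Large minus small was tested without a block, and number with growth in the model. Limma 3.58.1 with voom, DESeq2 1.42.0, other scaling, no filter, the block and leaving out libraries were alternatives. The scripts were checked on simulated data. For large against small without the block, the simulated counts held no difference between numbers, unlike the real ones. For the test of number, only a planted set of coding sequences differed, in number 1 alone. Neither test was therefore checked under differences between numbers like the real ones. A count of 0 allows up to 3 counts, or 0.153 to 1.23 CPM, for counting error only.

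In log2 CPM less the group mean, large and small libraries of equal number correlated over all tested rows at 0.74, 0.21 and 0.62 for numbers 1, 2 and 3, all above a limit of 0.1, so the block was treated as pairing the libraries. The test without the block leaves out this pairing, and its standard errors include the spread between numbers. Among unequal numbers, large 3 with small 2 (0.20) and large 2 with small 3 (0.11) also passed that limit, and the other 4 pairs were below 0. Over all tested rows the value for number 2 is therefore hardly above that of a mismatched pair. Over the 100 alone, libraries of equal number correlated at 0.96, 0.90 and 0.97 for numbers 1, 2 and 3. Pairs of unequal number ran there from -0.86 to -0.17. Values less the group mean sum to 0 within each group, so positive correlations at equal number push those at unequal number below 0 on average. In both sets the negative values are thus no separate support for pairing. Some of the 100 also entered through their level in part of the numbers. The description labels give the numbers but do not say that equal numbers are paired, so treating them as pairs rests on the values. No pair of libraries agreed within sampling noise (the lowest chi-square per coding sequence was 12.5), and each was counted as 1 sample.

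The members, lists and tests were chosen with earlier results of these data known. Identifiers named are the first 10 by mean CPM, the 3 on either side of the limit, and among the 100 the 2 with the smallest p in each direction between large and small, the 4 with the smallest p for number, the 3 lowest and 3 highest in CV, the 2 with the widest range of rank and the 2 with the largest ratio of the highest to the second library. Others are named after their values were seen.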

Additional observations from a re-analysis of the deposited data

How the results depend on the processing

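Of the 100 coding sequences, 0 were called between large and small fish in 15 of 17 other settings. DESeq2 with the replicate block called 1, HSB_liver_CDS_16951 (0.285% of all it tested), and without both libraries numbered 2 it called 1, HSB_liver_CDS_14466. The share of all tested called in the latter setting is not given here, so that call cannot be set against the whole table. EdgeR with the replicate block called 0. The count called by number was 49 in edgeR and 74 in limma voom (28.4% of all tested), and 0 to 51 when 1 library was left out. Shares of all tested called by number with 1 library left out are not given here, so those counts cannot be set against the whole table. The summed share kept within 1 SD in all 13 settings in large fish. That SD was 3.39 in large and 0.97 in small fish, so the limit was wider for large fish and does not show a steadier share there. In small fish (37.0%) it was 34.3% with the first coding sequence left out of members and totals and 38.0% without both libraries numbered 1. Coding sequences in every own list were 45 with lists of 100, 17 with lists of 50, 104 with lists of 200 and 70 without both libraries numbered 1. The median CV, 38.0%, was 31.4% to 42.6% when 1 library was left out, and 19.1%, 45.6% and 31.4% without both libraries of number 1, 2 and 3. Fold changes of 19 of the 26 named members changed sign in at least 1 of 17 settings, none of the 19 being called in any of them. The cause was not tested. Leaving out both libraries of a number was chosen after seeing the data. Without gene names, no gene list or sum over gene copies could be given.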

Other observations

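Outside the 100, 73 coding sequences were in the own list of the 100 most abundant of at least 1 library, all ranked 407 or better by mean CPM. Of these, 11 were in the lists of both libraries numbered 1 and no other, 10 in those of both libraries numbered 3 and no other, 12 in that of small library 1 alone, 10 in that of large library 3 alone and 9 in that of large library 1 alone. The highest level among them, named after the values were seen, was that of HSB_liver_CDS_33322, at 5064 and 2271 CPM in the large and the small library numbered 3 and at 27.5 to 76.8 CPM elsewhere.

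Another of the 73 differed between large and small pools more than any of the 100 did within the numbers. HSB_liver_CDS_33970, ranked 122 and named after its values were seen, had 2, 5 and 13110 counts in large libraries 1, 2 and 3, which are 0.38, 1.05 and 668 CPM, against 1507, 2082 and 2980 CPM in the small ones. All 3 large libraries lay below all 3 small ones. EdgeR put large minus small at -3.17 on the log2 scale with an SE of 2.25 (adjusted p = 1.0), and DESeq2 with the replicate block gave -9.69 (adjusted p = 0.00033). EdgeR with the same block gave -7.95 with an SE of 2.58 (adjusted p = 0.93), so that with the block 1 of these 2 tools called it.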
